A study of Mus musculus with 6 samples.

Results

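Spleen RNA of NOD mice that had been treated with TSA and cured was compared with spleen RNA of untreated non-diabetic NOD mice. TSA (trichostatin A) is a small molecule that inhibits histone deacetylases, the enzymes that remove acetyl groups from histones. The comparison took 4 of the 6 arrays of the series by their titles, 2 of TSA-treated mice and 2 of control mice without diabetes. All mice were females of the NOD strain, in which autoimmune diabetes arises spontaneously, and the labels give an age of 32 to 36 wk for every group (the study's methods give other ages for the diabetic and cured mice). The TSA-treated mice had been injected under the skin with 500 µg TSA per kg body weight each week between 18 and 24 wk of age. Treated mice that stayed diabetic were left out by the study, whereas the control mice had received no injection, so the drug, the injections and the selection of cured mice cannot be told apart here. The remaining 2 arrays, of untreated overtly diabetic mice, entered the model as a further group and are given beside some results. RNA from 3 to 5 spleens was combined into 1 pool a group, by the labels, and each pool was labeled and hybridized 2 times. The arrays of a group are therefore 2 measurements of 1 pool, and every SD and p-value describes hybridizations and not mice.

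The spleen filters blood in its red pulp, where macrophages take up old red cells and, in mice, red cells are also made, and it holds B and T lymphocytes in its white pulp. It lies against the tail of the pancreas, whose acinar cells make digestive enzymes as inactive precursors and secrete them into ducts. The labels call the source splenocytes, whereas the extraction text speaks of lysed tissue, so it is not settled whether stroma, vessels or attached tissue were part of the samples. In bulk RNA, fewer cells of a type and less RNA per cell cannot be told apart. Each level below is a log2 level from an Affymetrix mouse genome array, so that a difference of 1 is a change of 2-fold. A gene was called as risen or fallen at an adjusted p under 0.05 from limma, a linear model with moderated variances, over 45037 probe sets. A gene with several probe sets was given by the one with the highest mean over the 6 arrays, unless another is named.

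Markers of B cells, red cells and neutrophils were high in both groups, whereas markers of other tissues were not all low. The B cell gene Ms4a1 lay at 11.52 and 11.47 on the untreated non-diabetic arrays and at 10.90 and 9.605 on the TSA-treated arrays (replicates 1 and 2, here and below). The red cell anion exchanger Slc4a1 lay at 12.51 and 12.53, and at 13.10 and 13.01. The neutrophil gene S100a8 lay at 12.80 and 12.97, and at 13.28 and 13.41. Albumin of the liver (Alb) lay between 3.28 and 3.64 and the skeletal muscle actin Acta1 between 2.96 and 3.25 on the 4 arrays, below the array medians of 3.81 to 3.95. The acinar genes Amy2, Pnlip and Cpa1, however, lay between 8.08 and 10.55 on the TSA-treated arrays. The adipocyte gene Adipoq lay at 6.29 and 6.23 on the untreated non-diabetic arrays. The islet markers Ins2, Gcg and Sst, the acinar factor Ptf1a and the adipocyte hormone gene Lep lay at 4.41 or lower on the 4 arrays. Some other acinar and adipocyte genes, given below, lay higher. C1qa of red pulp macrophages lay at only 3.42 on TSA-treated replicate 2.

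The 2 arrays of the untreated non-diabetic pool resembled each other more closely than those of the TSA-treated pool. The SD of the difference between duplicates over all probe sets was 0.2529 for the untreated non-diabetic pool and 0.5889 for the TSA-treated pool. Duplicates lay more than 1 apart in 307 and 3554 probe sets, respectively, and in 2977 of the latter TSA-treated replicate 1 was the higher array. Control probe sets at both ends of a transcript also differed between the arrays. For beta-actin the 3′ signal exceeded the 5′ signal by 2.35 and 2.05 on the untreated non-diabetic and by 3.45 and 5.61 on the TSA-treated arrays, and the gap of Gapdh was 2.67 and 1.91, and 3.85 and 4.58. A wider gap is a known sign of shorter RNA or shorter labeled product. The 2 measures were thus widest on the TSA-treated arrays and most of all on replicate 2. The other control transcripts did not follow them. The gap of the transferrin receptor was 2.33 and 2.99, and 3.27 and 2.66, and that of pyruvate carboxylase 1.96 and 1.49, and 1.73 and 1.32, so the groups overlapped in both.

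The array by array differences showed how far the arrays repeated each other. When TSA-treated replicate 1 was set against untreated non-diabetic replicate 1, 1475 probe sets were higher and 1474 lower by at least 1. With replicate 2 of each, which shares no array with the first pair, 1583 were higher and 4146 lower. Both pairs had 542 probe sets higher, 36.8% of the first pair's and 34.2% of the second pair's, and 1265 lower, 85.8% and 30.5%. Opposite directions were seen in 83. Across probe sets the pairs of differences had a Pearson correlation of 0.56, or 0.55 with the control arrays exchanged (probe sets are not independent replicates).

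**Figure D1:**
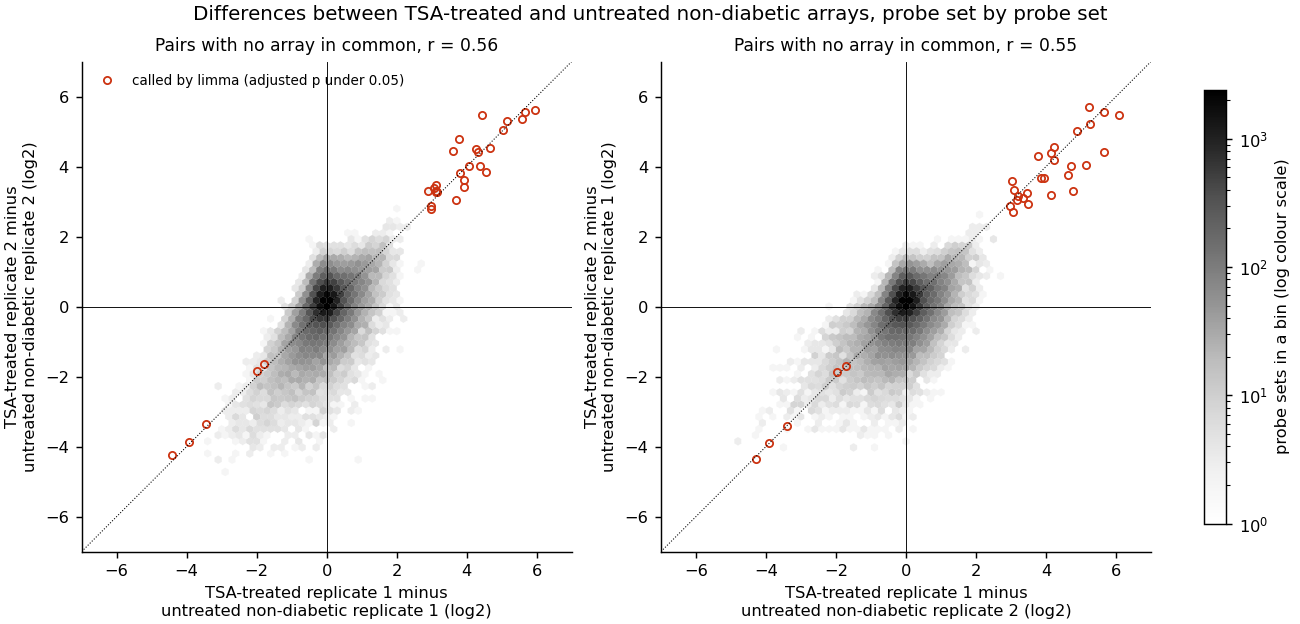
Difference in log2 level between a TSA-treated and an untreated non-diabetic array for one pair of arrays (x axis) against the pair made of the other 2 arrays (y axis), as a density of all 45037 probe sets (grey, log colour scale); open circles are the 31 called probe sets and the dotted line marks equality. The pairs correlate at 0.56 (left) and 0.55 (right). The called probe sets lie close to the line, which the test itself favours, since it was run on these same arrays.

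At an adjusted p under 0.05 from limma, 26 probe sets rose and 5 fell in TSA-treated mice, which is 0.0577% and 0.0111% of the 45037 tested (0.0688% in either direction). An unadjusted p under 0.05 was found in 6637. The 26 rises named 21 genes or gene pairs, and 17 of these were on the lists of exocrine pancreas genes or the Cela3 pair. This count leaves out the trypsinogen-like 2210010C04Rik, which was not on a list. Leaving out either untreated non-diabetic array removed all 31 calls (3424 and 2459 probe sets then had an unadjusted p under 0.05), leaving out TSA-treated replicate 1 gave 584 rises and 1461 falls, and leaving out TSA-treated replicate 2 gave 27 and 4. Among the called probe sets, the TSA-treated duplicates lay at most 0.81 apart in the rises, which measured 2.87 to 5.78, and at most 0.14 apart in the falls, which measured 1.71 to 4.33. The test favours probe sets with close duplicates, so these small gaps partly follow from the calling and are no separate evidence.

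A further description, with no test, counted the probe sets in which both TSA-treated arrays lay above (or below) both untreated non-diabetic arrays with means at least 1 apart. It held 916 probe sets above, 2.03% of all, and 2360 below, 5.24% of all. Counted over genes, these shares were 2.92% above (532 of 18197) and 3.59% below (654 of 18197). Below, such genes are said to lie apart. On the untreated diabetic arrays, which played no part in this count, 1132 of the 2360 lower probe sets (48.0%) lay at least 1 lower on replicate 2 than on replicate 1, against 3.12% of all probe sets, and only 1 lay as far the other way. Diabetic replicate 2 also had the wider beta-actin gap of that pool, 3.32 against 2.42. Thus probe sets that lay lower on the TSA-treated arrays also lay lower on the other array with a wide gap, and the part of RNA quality in the lower values was not tested. Of the 916 higher probe sets, 0 lay at least 1 lower and 96 (10.5%) at least 1 higher on diabetic replicate 2, against 1.61% of all.

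**Figure D2:**
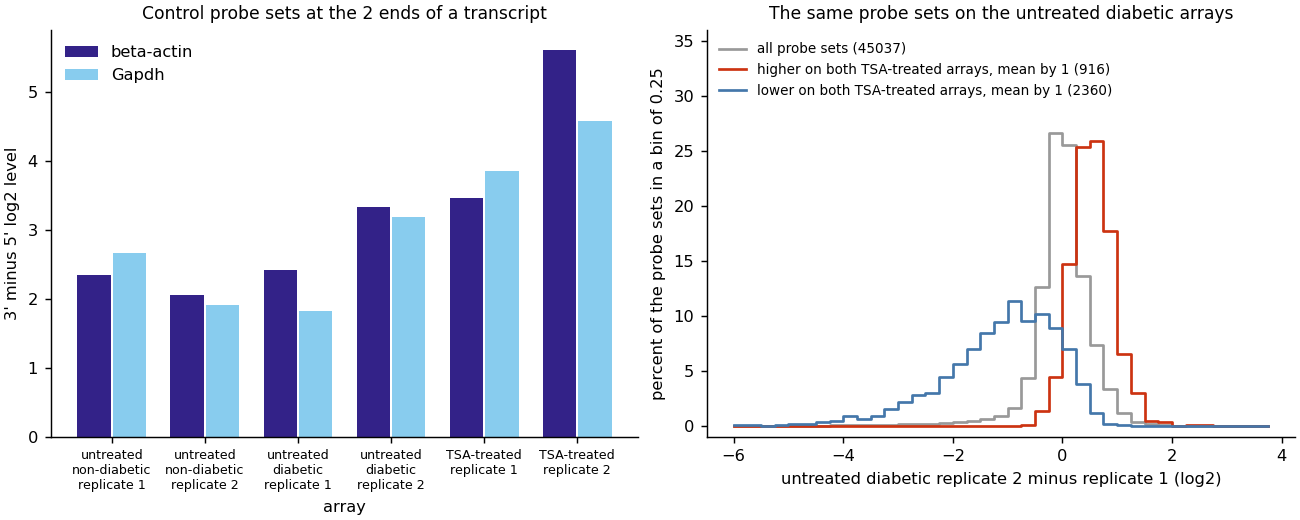
Left, bars of the 3′ minus 5′ log2 level on each of the 6 arrays for the controls beta-actin and Gapdh; the lowest bar of beta-actin is 2.05 (untreated non-diabetic replicate 2) and the highest 5.61 (TSA-treated replicate 2). Right, the share of probe sets in bins of the log2 difference between the untreated diabetic arrays, for all 45037 probe sets, the 916 that lay higher and the 2360 that lay lower in TSA-treated than in untreated non-diabetic mice; the lower group has a median of -0.95 and the higher group of 0.54.

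Digestive enzymes of the exocrine pancreas were the main rise. A list of 29 such enzymes and colipase had 20 measured members, of which 11 rose, 0 fell and 9 did not pass the test, against 0.104% of all genes (0.126% in either direction); 19 of the 20 lay apart upward. The median difference over the list was 3.06 (3.09 on TSA-treated replicate 1 and 2.80 on replicate 2, each against the mean of the controls), and over all genes it was 0.07. The 11 called genes code for an amylase, lipases and colipase, an elastase, a chymotrypsin-like protease, a trypsin, carboxypeptidases and a ribonuclease.

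Sequence before the transcription start of the called enzyme genes Cpb1 and Cela3b and of the acinar gene Reg1 is shown because acinar genes share binding motifs for PTF1, the factor that drives acinar genes. PTF1 binds an E-box and a second motif of letters TTTCCCA. The 250 bases before the start (RefSeq, GRCm38.p6) are given 5′ to 3′ on the strand of the gene, with each match to CACCTG or TTTCCCA, on either strand, in capitals.
Cpb1 (chr3:20275734-20275983, minus strand): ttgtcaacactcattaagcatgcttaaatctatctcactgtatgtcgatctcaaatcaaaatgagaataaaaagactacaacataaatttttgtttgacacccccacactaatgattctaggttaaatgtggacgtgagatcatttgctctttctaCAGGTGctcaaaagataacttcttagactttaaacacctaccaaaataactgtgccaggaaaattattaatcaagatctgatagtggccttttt
Cela3b (chr4:137430521-137430770, minus strand): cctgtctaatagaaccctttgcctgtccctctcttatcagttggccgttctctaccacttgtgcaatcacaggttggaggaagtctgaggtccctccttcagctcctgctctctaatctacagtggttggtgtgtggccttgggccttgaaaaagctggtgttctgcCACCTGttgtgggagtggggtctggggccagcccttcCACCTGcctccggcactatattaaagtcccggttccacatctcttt
Reg1 (chr6:78425733-78425982, plus strand): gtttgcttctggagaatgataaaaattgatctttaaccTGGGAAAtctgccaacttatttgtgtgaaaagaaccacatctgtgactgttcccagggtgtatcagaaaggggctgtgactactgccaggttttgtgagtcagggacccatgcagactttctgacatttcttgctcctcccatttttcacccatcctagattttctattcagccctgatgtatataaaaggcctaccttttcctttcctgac
Of the measured digestive enzyme genes, 17 had an entry in the promoter table, and 10 of their 17 promoters (58.8%) held CACCTG and 5 (29.4%) TTTCCCA, against 17.2% and 6.82% of 32851 promoters of that length. Among 11 promoters of called exocrine genes, 5 (45.5%) held CACCTG and 3 (27.3%) TTTCCCA. Each promoter shown held a match, whereas not every called gene's promoter did. A match describes the letters only. The factor itself was near background: Ptf1a lay at 3.00 and 2.98 on the untreated non-diabetic and at 3.30 and 3.48 on the TSA-treated arrays.

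Among the enzymes of starch and fat, Amy2, pancreatic amylase, lay at 4.60 and 4.47 on the untreated non-diabetic arrays and at 10.55 and 10.07 on the TSA-treated arrays. It rose by 5.78 ± 0.22 (SE; adjusted p = 0.00243 from limma), or 54.8-fold, the largest difference among the called probe sets. Clps, colipase, which anchors pancreatic lipase on fat droplets, lay at 4.29 and 4.64, and at 9.86 and 10.005, and rose by 5.47 ± 0.19 (adjusted p = 0.0021 from limma). Pnlip, pancreatic triglyceride lipase, lay at 4.96 and 4.31, and at 9.98 and 9.36, and rose by 5.04 ± 0.32 (adjusted p = 0.00853 from limma). In each of these genes both TSA-treated arrays lay far above both untreated non-diabetic arrays. The lipase-related genes Pnliprp1 and Pnliprp2 rose by 2.93 and 3.19 (limma's adjusted p = 0.00598 and 0.00977). Cel, bile salt-dependent lipase, lay at 4.27 and 4.22, and at 7.22 and 6.25, a difference of 2.49 that did not pass the test (adjusted p = 0.0952). Pla2g1b, pancreatic phospholipase A2, differed by 1.16 and did not pass either.

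Among the proteases, Cpb1, carboxypeptidase B, lay at 3.91 and 3.82 on the untreated non-diabetic arrays and at 9.07 and 9.11 on the TSA-treated arrays, and rose by 5.23 ± 0.17 (adjusted p = 0.00203 from limma). Its TSA-treated arrays differed by 0.039, the smallest gap between those duplicates among the rises. Cpa1, another carboxypeptidase, rose by 3.66 and the chymotrypsin-like Ctrl by 3.36 (adjusted p = 0.0185 and 0.00781 from limma). The elastase Cela3b lay at 5.24 and 5.29, and at 9.51 and 9.80, and rose by 4.39 ± 0.18 (adjusted p = 0.00243 from limma). A probe set shared by Cela3a and Cela3b rose by 4.96. Other elastases and chymotrypsins lay apart without passing the test: Cela2a differed by 3.45, Cela1 by 2.19, Ctrb1 by 1.84 and Ctrc by 1.33. The trypsinogen-like 2210010C04Rik, which was not on the list, lay at 4.55 on both untreated non-diabetic arrays and at 10.22 and 10.11 on the TSA-treated arrays, and rose by 5.61 ± 0.15 (adjusted p = 0.00135 from limma), the lowest adjusted p of the comparison. Its other probe sets differed by 3.83 and 1.26 and did not pass (adjusted p = 0.0617 and 0.128 from limma). Trypsins share sequence, so their probe sets may read each other's transcripts. Rnase1, the pancreatic ribonuclease, rose by 2.87 ± 0.17 (adjusted p = 0.00777 from limma).

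Where a called enzyme gene had several probe sets, all lay apart upward but by different amounts. For the trypsin Prss2, 2 probe sets rose by 4.20 and 3.77 with TSA-treated arrays at 10.02 and 9.80, and at 10.02 and 9.77. The 2 other probe sets differed by 2.29 and 1.81 with TSA-treated arrays far apart, at 9.67 and 8.05, and at 9.48 and 7.37, and did not pass. The same was seen for Cela3b, of which 1 probe set differed by 1.78 with TSA-treated arrays at 8.54 and 6.79. A second probe set of Clps differed by 3.07 with TSA-treated arrays at 8.40 and 7.96, and did not pass. TSA-treated replicate 2 was the lower duplicate in these 4, but not in a second probe set of Pnliprp2, which differed by 3.74 with TSA-treated arrays at 5.90 and 7.11 (adjusted p = 0.0617 from limma).

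Of 25 measured further genes of acinar cells, 5 rose and 0 fell, against 0.104% and 0.022% of all genes. Reg1, a secreted protein of acinar cells, lay at 3.34 and 2.86 on the untreated non-diabetic arrays and at 7.998 and 7.39 on the TSA-treated arrays, and rose by 4.59 ± 0.29 (adjusted p = 0.00805 from limma). Sycn, a protein of the zymogen granule membrane, rose by 4.37 and Zg16, a lectin of these granules, by 4.28 (adjusted p = 0.00598 and 0.00805 from limma). Another Sycn probe set differed by 2.36, with TSA-treated arrays at 6.93 and 5.45, and did not pass the test. Another Zg16 probe set rose by 4.19, whereas the remaining one differed by 1.99, with TSA-treated arrays at 5.51 and 4.21, and did not pass. Spink1, the trypsin inhibitor of acinar cells, rose by 3.30 and the mucosal scavenger receptor gene Dmbt1 by 3.21 (adjusted p = 0.00781 and 0.00716 from limma). The members that rose code for secreted or granule proteins. The untreated non-diabetic levels of Reg1, Spink1, Dmbt1, Pnliprp2 and the probe set shared by Cela3a and Cela3b lay below the array medians, where RMA values give no sign of whether a transcript was detected, so these differences are best read as lower bounds. Reg2 and Pdia2, a disulfide isomerase of the pancreas, lay apart at 1.46 and 2.11 without passing the test. The transcription factors of acinar cells lay at low levels in both groups, Bhlha15 at 5.42 and 5.58, and at 5.27 and 5.36, and Rbpjl at 3.77 and 3.89, and at 3.89 and 4.18. The median difference over these 25 genes was 0.31.

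No gene of other pancreatic cells was called. Of 18 islet hormone and endocrine cell genes, 0 passed limma's test, 0 lay apart, and the differences ran from -0.29 to 0.28. The insulin gene Ins2 lay at 4.16 and 4.41 on the untreated non-diabetic arrays and at 4.12 and 4.19 on the TSA-treated arrays. At an unadjusted p under 0.05, 0 of the 18 islet genes passed. Of 10 duct cell genes, 0 passed limma's test and 1 had an unadjusted p under 0.05. The only one that lay apart was Car2, carbonic anhydrase 2, at 12.36 and 12.17, and at 13.55 and 13.21; red cells also make this enzyme. Skeletal muscle and liver lists, 12 and 11 genes, held 0 calls, and 1 muscle gene (Mylpf, a myosin light chain, higher by 1.40) lay apart.

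**Figure D3:**
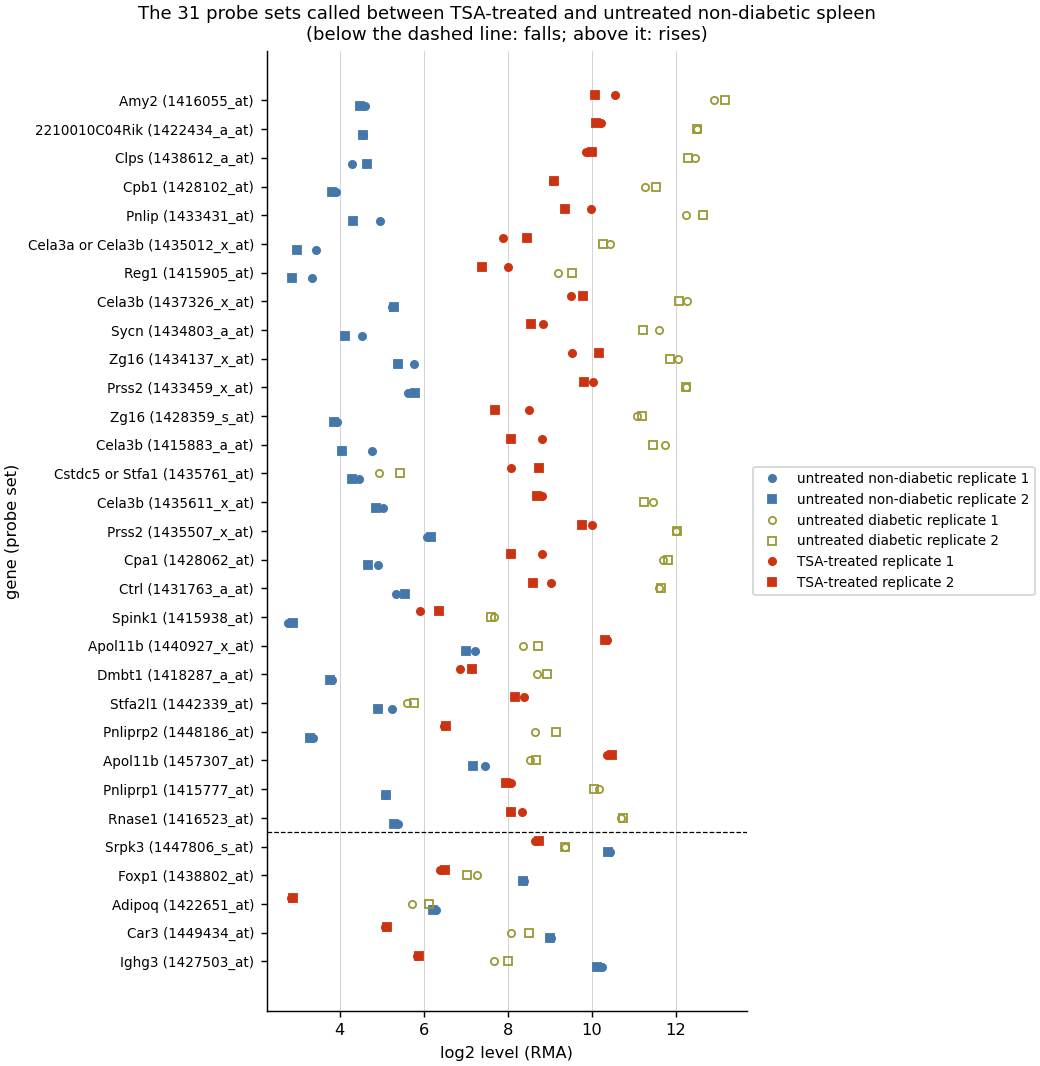
Log2 level of the 31 called probe sets on each of the 6 arrays, ordered by the difference between TSA-treated (red) and untreated non-diabetic (blue) arrays; circles are replicate 1 and squares replicate 2 of a pool, and open symbols the untreated diabetic arrays. Of the 26 rises, 22 lie still higher on the untreated diabetic arrays, and in the 5 falls the diabetic means lie between those of the groups compared.

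The exocrine rise was smaller in TSA-treated than in untreated diabetic mice. The 21 called exocrine probe sets had untreated diabetic means of 7.64 to 13.04 and TSA-treated means of 6.13 to 10.31, all 21 higher in the diabetic pool. Of these, 7 passed limma's test between TSA-treated and diabetic arrays, against 0.0266% of all probe sets and 0.055% of all genes; both comparisons share the TSA-treated arrays. The differences, diabetic above TSA-treated, ran from 1.51 for Spink1 to 3.31 for Cpa1.

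Outside these 21 probe sets, 5 rose. Of these, 2210010C04Rik, given above, was also higher on the diabetic arrays, whereas 2 probe sets of Apol11b, 1 of Stfa2l1 and 1 shared by Cstdc5 and Stfa1 were lower there than on the TSA-treated arrays. Apol11b belongs to the apolipoprotein L family, proteins related to the human trypanosome lytic factor. It lay at 7.46 and 7.18 on the untreated non-diabetic arrays, at 8.53 and 8.68 on the diabetic arrays and at 10.36 and 10.49 on the TSA-treated arrays, and rose by 3.11 ± 0.18 (adjusted p = 0.00716 from limma). Its second probe set rose by 3.22. The groups did not overlap. Of the 4 measured apolipoprotein L genes, Apol11b alone passed the test.

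Stefin A proteins are cystatins, inhibitors of cathepsin proteases, and are made in quantity by mouse neutrophils and their precursors. Stfa2l1 lay at 5.23 and 4.90 on the untreated non-diabetic arrays, at 5.61 and 5.78 on the diabetic arrays and at 8.38 and 8.17 on the TSA-treated arrays, and rose by 3.21 ± 0.19 (adjusted p = 0.00777 from limma). The probe set shared by Cstdc5 and Stfa1 lay at 4.45 and 4.30, and at 8.07 and 8.75 on the TSA-treated arrays, and rose by 4.04 ± 0.29 (adjusted p = 0.0153 from limma). Stfa3 lay at 3.33 and 3.14, and at 5.30 and 5.96, a difference of 2.40 that did not pass (adjusted p = 0.0663). These 3 lay higher in TSA-treated mice than on all other arrays, and Stfa2l1 was the only probe set that was called higher in TSA-treated than in diabetic mice (by 2.58, adjusted p = 0.0448 from limma). The genes are near copies of each other, so their probe sets may share transcripts. Of 6 measured genes of this list, 1 rose.

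No other neutrophil gene was called. Of 22 granule and calprotectin genes, 0 were called, 0 lay apart upward and 4 lay apart downward, against 3.59% of all genes. The list as a whole was evenly split, with 11 of the 22 higher in TSA-treated mice. Its median difference was 0.05 (0.09 and 0.13 on the TSA-treated arrays). The calprotectin gene S100a8 was higher by 0.46. Elane, neutrophil elastase, lay at 7.83 and 7.86 on the untreated non-diabetic arrays and at 6.92 and 5.29 on the TSA-treated arrays. Ltf, lactoferrin, lay at 9.08 and 9.23, and at 8.96 and 7.15. In both, TSA-treated replicate 2 was the lower array, and replicate 1 lay within 1 of the controls.

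The 5 called falls were single genes of different functions. Ighg3, which codes for the heavy chain constant region of IgG3, lay at 10.25 and 10.12 on the untreated non-diabetic arrays and at 5.84 and 5.89 on the TSA-treated arrays, and fell by 4.33 ± 0.18 (adjusted p = 0.00243 from limma). The groups lay far apart and the duplicates differed by at most 0.12. The 3 other probe sets that name Ighg3 lay between 2.27 and 4.31 on the 4 arrays and differed by -0.31 to 0.19, so the fall was seen in 1 of 4 probe sets. On the diabetic arrays it lay at 7.68 and 7.999.

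A pair of the falls were genes of fat cells. Car3, carbonic anhydrase 3, an abundant protein of adipocytes and muscle, lay at 9.02 and 8.99 on the untreated non-diabetic arrays and at 5.09 and 5.13 on the TSA-treated arrays, and fell by 3.90 ± 0.19 (adjusted p = 0.0046 from limma). Adipoq, the adipocyte hormone adiponectin, lay at 6.29 and 6.23, and at 2.83 and 2.88, and fell by 3.40 ± 0.19 (adjusted p = 0.00706 from limma). Of the 3 other Car3 probe sets, 1 lay apart at -1.36 without passing the test and 2 differed by -0.27 and -0.03 at low levels. Car3 and Adipoq were also lower than on the diabetic arrays, by 3.18 and 3.06 (adjusted p = 0.0448 for both from limma). The TSA-treated level of Adipoq was below every array median. Of 18 measured adipocyte genes, these 2 fell, against 0.022% of all genes, 0 rose, and Retn, resistin, lay apart at 5.89 and 5.79, and at 4.21 and 4.71. Fabp4, the fatty acid binding protein of adipocytes, lay at 7.38 and 7.22, and at 6.62 and 7.004, and did not pass the test. Most adipocyte genes thus did not pass the test.

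Foxp1, a transcription factor of B cell development, fell by 1.92 ± 0.17 in 1 of its probe sets, from 8.38 and 8.35 to 6.38 and 6.52 (adjusted p = 0.0431 from limma). All 8 Foxp1 probe sets lay apart downward, with differences of -1.07 to -2.75, and the brightest lay at 10.47 and 10.46, and at 9.28 and 9.40 (adjusted p = 0.0954). Srpk3, a kinase of splicing factors, fell by 1.71 ± 0.15 in its brightest probe set, from 10.44 and 10.38 to 8.66 and 8.74 (adjusted p = 0.0444 from limma). Of its other probe sets, 1 lay apart at -1.05, whereas the remaining 2 differed by -0.40 and 0.08 at low levels.

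Genes of dividing cells lay higher in TSA-treated mice, although 0 of them passed the test. Of 38 genes of mitosis and the spindle, 22 lay apart upward and 0 downward, against 2.92% and 3.59% of all genes, with a median difference of 1.17 (1.42 on TSA-treated replicate 1 and 0.90 on replicate 2). At an unadjusted p under 0.05, 27 of the 38 passed, as did 2913 of all 18197 genes. On TSA-treated replicate 1 all 38 lay above the mean of the controls, and on replicate 2 34 did. The untreated diabetic arrays were higher too, by a median of 0.92 over the list against the controls. The median level of the list was 8.32 on diabetic replicate 1 and 8.73 on replicate 2, the array with the wider beta-actin gap. The part of RNA quality in these higher values was not tested. Ncapg, a condensin subunit that folds mitotic chromosomes, lay at 6.45 and 6.22 on the untreated non-diabetic arrays and at 8.51 and 8.74 on the TSA-treated arrays, higher by 2.29 (adjusted p = 0.0539). Ect2, which positions the cleavage furrow, lay at 7.06 and 6.69, and at 8.95 and 9.35. The checkpoint kinases Bub1 and Ttk differed by 2.22 and 1.76. Mki67, the Ki-67 proliferation marker, lay at 11.39 and 11.45, and at 12.39 and 12.41, just short of the difference of 1. The cyclin Ccnb1 lay at 9.12 and 9.05, and at 10.69 and 10.41. Exceptions, named after their values were seen, lay on replicate 2. Ube2c, which marks cyclins for destruction, lay at 8.96 and 9.06, and at 10.17 and 7.16, and the mitotic kinase Aurka at 6.35 and 6.54, and at 7.90 and 5.52.

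DNA replication genes behaved likewise. Of 33 genes, 15 lay apart upward and 0 downward, 0 were called and 23 had an unadjusted p under 0.05, with a median difference of 0.89 (1.15 and 0.75 on the TSA-treated arrays). Between the untreated diabetic arrays and the controls the median difference was 0.68. Ccne2, cyclin E2 of the entry into S phase, lay at 5.64 and 5.82 on the untreated non-diabetic arrays and at 7.92 and 7.72 on the TSA-treated arrays. Gins1 of the replicative helicase differed by 1.82, the clamp loader subunit Rfc4 by 1.75 and the primase Prim1 by 1.69. The helicase subunits Mcm2 to Mcm7 differed by 0.47 to 1.08. Genes of both parts of the cell cycle were thus higher on both arrays and more so on replicate 1. Other genes outside these lists that lay farthest apart upward also included Depdc1a, which acts in mitosis, at 4.53 and 4.67, and at 7.59 and 7.15, and Lrr1, of the ubiquitin system, at 5.56 and 4.86, and at 7.72 and 7.82.

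Genes of late cell cycle are known to carry CCAAT boxes, bound by NF-Y, and a CHR element of letters TTTGAA in their promoters. Promoters of 2 of the genes that lay apart are shown for these motifs, in capitals on either strand (250 bases before the start, RefSeq, GRCm38.p6).
Ncapg (chr5:45669675-45669924, plus strand): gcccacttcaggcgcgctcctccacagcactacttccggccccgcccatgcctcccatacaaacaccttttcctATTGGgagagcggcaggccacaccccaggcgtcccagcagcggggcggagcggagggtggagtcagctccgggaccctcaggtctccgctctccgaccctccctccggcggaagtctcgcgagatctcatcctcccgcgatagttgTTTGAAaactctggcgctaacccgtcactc
Bub1 (chr2:127831860-127832109, minus strand): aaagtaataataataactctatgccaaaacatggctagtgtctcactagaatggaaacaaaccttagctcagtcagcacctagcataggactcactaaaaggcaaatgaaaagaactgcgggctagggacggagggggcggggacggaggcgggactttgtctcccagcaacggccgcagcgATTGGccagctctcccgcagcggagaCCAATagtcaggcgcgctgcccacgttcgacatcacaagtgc
Of 34 promoters of 32 mitosis genes, 28 (82.4%) held CCAAT and 13 (38.2%) TTTGAA, against 33.8% and 16.0% of 32851 promoters. Of 32 promoters of 27 replication genes, 18 (56.2%) held CCAAT and 4 (12.5%) TTTGAA.

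Genes of the DNA damage response were mixed. Of 14, 3 lay apart upward and 0 downward, against 2.92% and 3.59% of all genes, and 0 were called. Chek1, a checkpoint kinase that is also made in S phase, lay at 5.89 and 5.90 on the untreated non-diabetic arrays and at 7.74 and 8.10 on the TSA-treated arrays (adjusted p = 0.057 from limma). Gadd45a, a growth arrest gene, lay at 6.34 and 6.06, and at 8.44 and 8.23. Brca1 differed by 1.75, and the remaining 11 did not lie apart.

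Red cell genes lay higher on TSA-treated replicate 1 than on replicate 2. The median difference of 17 genes of the red cell membrane and blood groups was 0.54, made of 1.06 on TSA-treated replicate 1 and 0.14 on replicate 2. For 17 genes of heme synthesis and globins it was 0.58, made of 0.94 and 0.16. The 15 erythroid regulators had medians of 0.75 and -0.22 on the 2 arrays. In the 3 lists together 0 genes were called. In each of the membrane and heme lists 2 genes lay apart upward, and among the regulators 1 did, against 2.92% of all genes. Downward, Ppox of heme synthesis lay apart at 7.36 and 7.37, and at 7.27 and 4.10, and the regulator Ldb1 at 4.89 and 5.79, and at 3.58 and 2.94. Epb42, a membrane skeleton protein of red cells, lay at 6.83 and 6.45 on the untreated non-diabetic arrays and at 8.88 and 8.77 on the TSA-treated arrays, higher by 2.19 (adjusted p = 0.052). Ermap, the erythroblast membrane protein of the Scianna blood group, lay at 10.34 and 10.29, and at 11.55 and 11.84. Urod of heme synthesis lay at 10.97 and 10.88, and at 12.24 and 12.31, and the erythroid factor Tal1 at 9.43 and 9.42, and at 10.97 and 10.94. These 4 lay apart with duplicates close together, in contrast to Alas2, the first enzyme of heme synthesis in red cells, at 11.12 and 11.09, and at 11.39 and 8.60. Aqp1, the red cell water channel, lay at 9.98 and 10.07, and at 11.27 and 8.42 (this and the previous gene were chosen after their values were seen). Hbb-y, an embryonic globin, lay at 3.12 and 2.85, and at 4.93 and 5.78, and at 3.15 and 3.71 on the diabetic arrays.

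**Figure D4:**
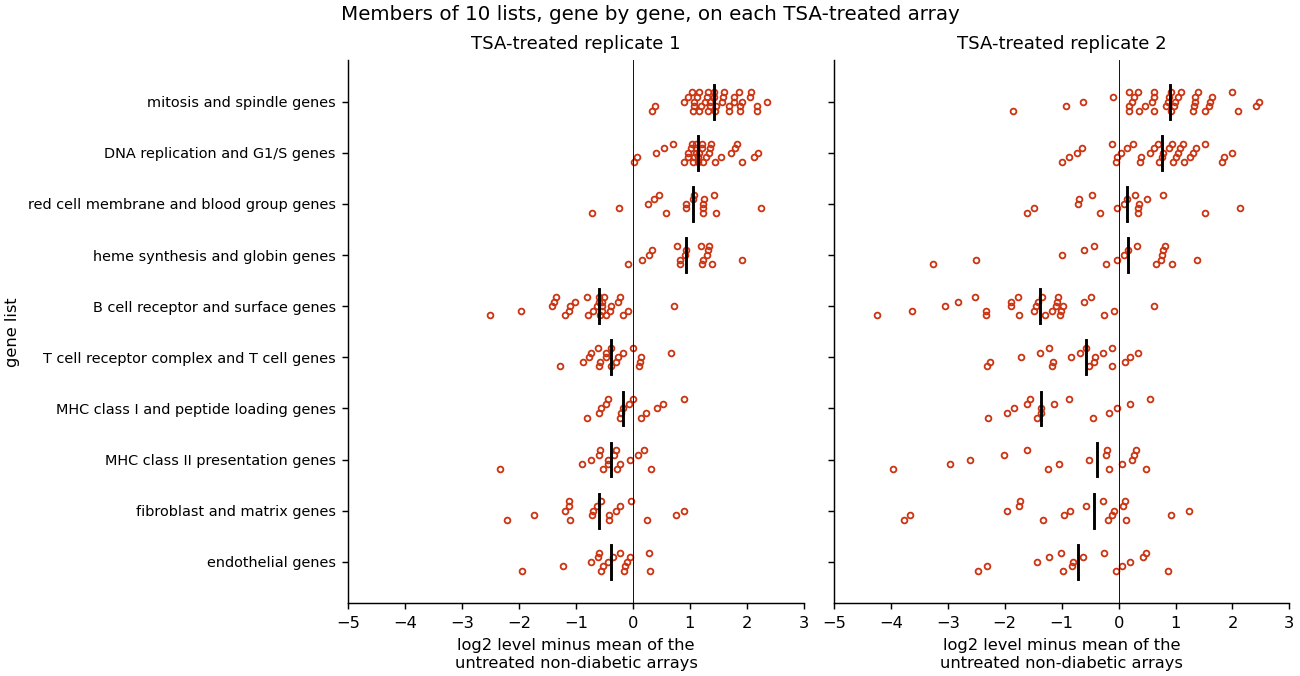
Log2 level minus the mean of the untreated non-diabetic arrays for each measured member of 10 gene lists (open circles) on TSA-treated replicate 1 (left) and replicate 2 (right), with a bar at the median. Mitosis genes have medians of 1.42 and 0.90, red cell membrane genes of 1.06 and 0.14 and B cell genes of -0.59 and -1.38.

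B cell genes lay lower in TSA-treated mice, on the arrays with the wider beta-actin gaps, whose part in these values was not tested. Of 28 B cell receptor and surface genes, 14 lay apart downward, 0 upward and 0 were called, against 3.59% downward and 2.92% upward of all genes. An unadjusted p under 0.05 was found in 21 of the 28, and in 2913 of all 18197 genes. The median difference was -1.02, with -0.59 on TSA-treated replicate 1 and -1.38 on replicate 2, and 27 of the 28 lay below the controls on each array. Cd79a, a signaling chain of the B cell receptor, lay at 9.58 and 9.75 on the untreated non-diabetic arrays and at 7.70 and 5.42 on the TSA-treated arrays. Its partner Cd79b lay at 11.11 and 10.95, and at 10.40 and 9.14. Ebf1, a factor that specifies B cells, lay at 9.13 and 8.97, and at 6.54 and 5.998. On the diabetic arrays the median level of the list was 8.60 on replicate 1 and 8.67 on replicate 2. The list as a whole was thus not lower on replicate 2, the array with the wider beta-actin gap. Single members were lower there, Ebf1 at 8.10 and 6.35 and Cd79a at 9.55 and 8.42. Cd24a, which red cell precursors also carry, was the exception to the lower TSA-treated levels, at 13.13 and 13.29 on the untreated non-diabetic and at 13.92 and 13.83 on the TSA-treated arrays.

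Genes of antibody secretion and of T cells were read next, against 3.59% of all genes apart downward and 2.92% upward. Ighm lay at 14.45 and 14.48 on the untreated non-diabetic arrays and at 14.24 and 13.68 on the TSA-treated arrays, and Igha at 14.01 and 13.94, and at 13.41 and 12.28. Of 16 plasma cell genes, 2 lay apart downward and 1 upward, Ell2, an elongation factor of antibody secreting cells, at 8.92 and 8.75, and at 10.09 and 9.68. Of 19 genes of the T cell receptor complex and T cells, 3 lay apart downward and 0 upward, with a median difference of -0.66 (-0.39 and -0.57 on the arrays). Cd4 lay at 7.31 and 7.28, and at 6.01 and 6.14, lower with close duplicates. Cd3e lay at 9.57 and 9.38, and at 8.88 and 8.95, and Cd8a, which is not on the list, at 7.02 and 6.91, and at 6.87 and 6.77. Tnfrsf18, the GITR receptor of regulatory and activated T cells, lay at 7.83 and 7.88, and at 6.81 and 6.49. Of 20 NK and cytotoxic lymphocyte genes, 0 lay apart in either direction.

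Antigen presentation genes included members that lay apart downward, 4 of 16 in MHC class II presentation and 4 of 15 in MHC class I and peptide loading, against 3.59% of all genes, and 0 were called. For MHC class II the median difference was -0.38 (-0.39 and -0.37 on the arrays). Cd74, the invariant chain, lay at 12.33 and 12.36 on the untreated non-diabetic arrays and at 11.45 and 8.38 on the TSA-treated arrays. H2-DMb2, which helps load peptides, lay at 10.07 and 10.14, and at 7.78 and 7.14. For MHC class I the median difference was -0.76, but the arrays disagreed, at -0.18 and -1.37. Tapbp, tapasin, lay at 9.28 and 9.39, and at 8.53 and 7.04.

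Macrophage genes went both ways. Of 15 red pulp macrophage and complement C1q genes, 3 lay apart downward (20.0%) and 1 upward (6.67%), against 3.59% and 2.92% of all genes. The list had medians of 0.36 and -0.41 on the TSA-treated arrays. C1qa, a chain of complement C1q, lay farthest down in the list, with a difference of -3.79, at 9.07 and 9.17 on the untreated non-diabetic arrays and at 7.24 and 3.42 on the TSA-treated arrays. Cd5l, a secreted macrophage protein, lay at 7.97 and 7.72, and at 9.47 and 9.16. The receptor Mertk and the bridging protein Mfge8, which act in the uptake of dying cells, differed by -1.99 and -1.27. Of 22 monocyte and macrophage genes, 2 lay apart upward (9.09%) and 1 downward (4.55%), among them the mannose receptor Mrc1 at 8.47 and 8.32, and at 9.63 and 9.68.

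In lists for cells of the framework and vessels of the spleen, some genes lay apart downward. Of 18 fibroblast and matrix genes, 7 lay apart downward and 0 upward, against 3.59% and 2.92% of all genes, with a median difference of -0.50 (-0.60 and -0.43 on the arrays). The part of RNA quality in these lower values was not tested. Dcn, the matrix proteoglycan decorin, lay at 8.80 and 9.08 on the untreated non-diabetic arrays and at 6.72 and 5.18 on the TSA-treated arrays. Col1a2, a collagen chain, lay at 8.62 and 8.51, and at 7.44 and 6.83. Of 16 endothelial genes, 2 lay apart downward, Plvap of vessel fenestrae with a difference of -2.21 and the VEGF receptor Kdr of -1.34. The median was -0.60 (-0.39 and -0.71 on the arrays). Of 15 smooth muscle genes, 4 lay apart downward, and Tagln lay at 8.25 and 8.06, and at 7.08 and 6.57. Of 18 megakaryocyte and platelet genes, 3 lay apart downward, with a median of -0.56 (-0.41 and -0.62 on the arrays). In these lists 0 genes were called and 0 lay apart upward.

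**Figure D5:**
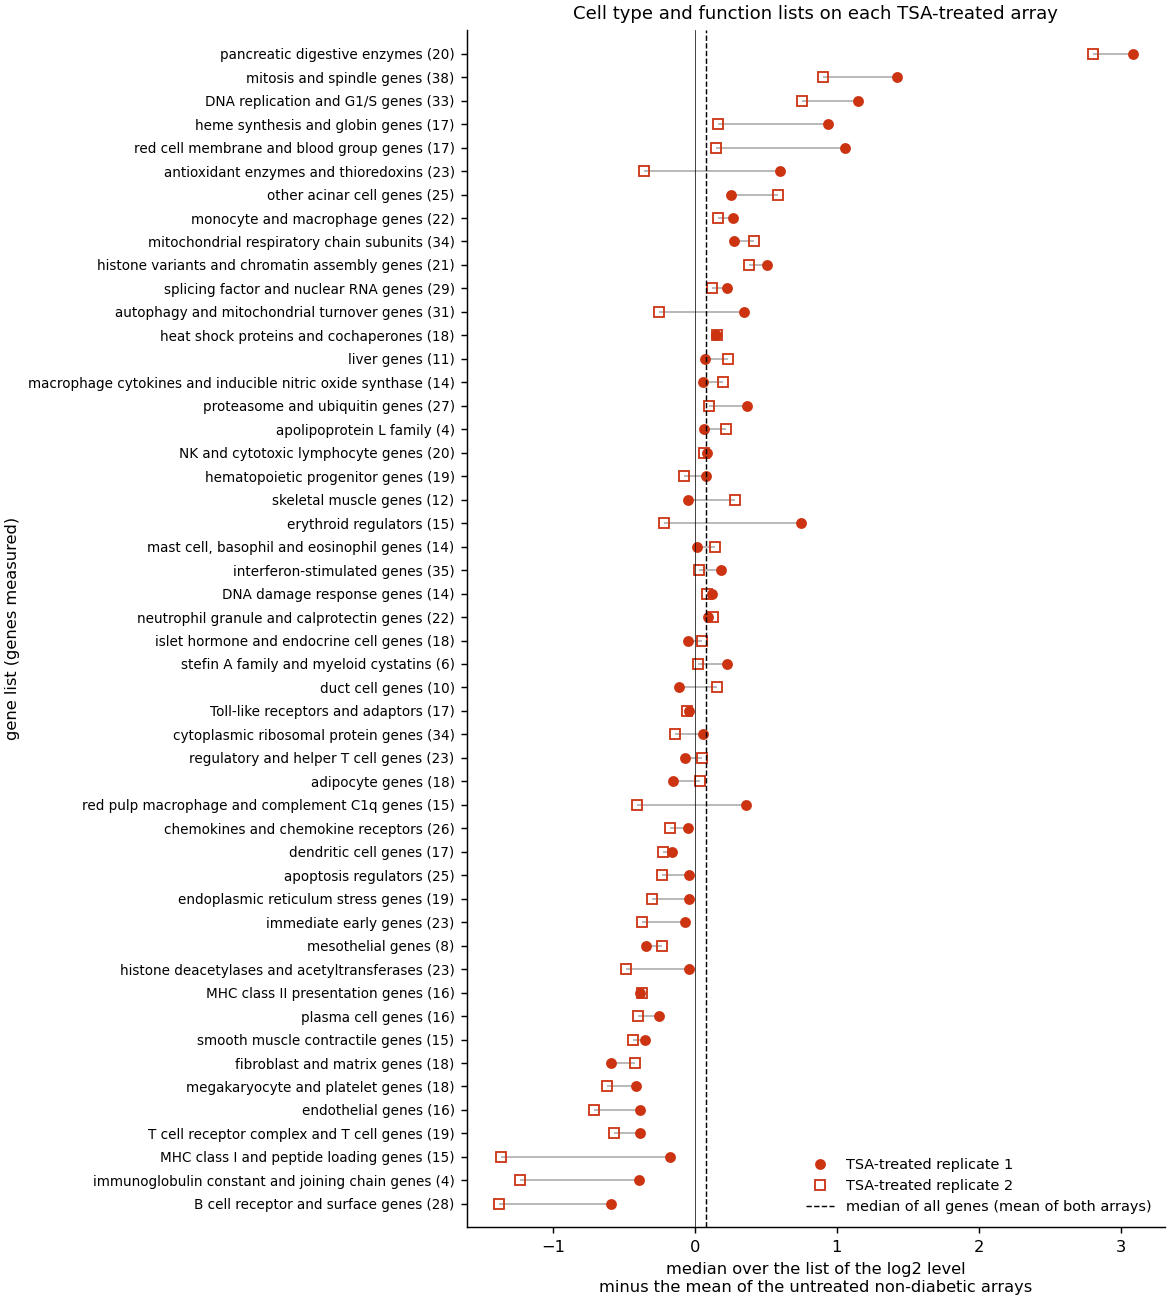
Median over each of the 50 gene lists of the log2 level minus the mean of the untreated non-diabetic arrays, on TSA-treated replicate 1 (filled circles) and replicate 2 (open squares); the number of genes measured stands in brackets and the dashed line is the median of all genes, 0.07. Digestive enzymes (3.09 and 2.80) and cell division genes lie to the right on both arrays and B cell genes (-0.59 and -1.38) to the left.

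Outside the called genes, the 10 genes that lay farthest apart downward, among those brighter over the 6 arrays than the median probe set, differed by -3.11 to -3.79, and all 10 were also lower on diabetic replicate 2 than on replicate 1. They were C1qa, 2310001H17Rik, Inpp4b, Itga6, Rc3h2, Pfn1, Mysm1, Rabac1, Atp2b1 and Gm34006, which share no list. Itga6, an integrin subunit, lay at 9.41 and 9.75 on the untreated non-diabetic, at 8.89 and 5.83 on the diabetic and at 6.80 and 5.60 on the TSA-treated arrays. Inpp4b, a phosphoinositide phosphatase, lay at 7.01 and 7.76, at 6.94 and 3.25, and at 3.68 and 3.97. Pfn1, the actin-binding protein profilin, lay at 11.34 and 11.52, at 11.39 and 10.30, and at 9.91 and 6.63. In these genes the low values stood on the arrays with the wider beta-actin gaps, whose part was not tested. Upward, such genes not described elsewhere were Tlcd4, at 4.71 and 4.52, at 5.99 and 6.67, and at 7.16 and 6.61, and Bex4, at 5.89 and 6.05, at 6.63 and 7.47, and at 8.26 and 8.28 in the same order.

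Interferon-stimulated genes were mixed. Of 35, 6 lay apart upward and 1 downward, against 2.92% and 3.59% of all genes, and 0 were called. Cmpk2, a mitochondrial nucleotide kinase, lay at 6.40 and 6.17 on the untreated non-diabetic arrays and at 8.36 and 7.98 on the TSA-treated arrays. The RNA sensor Ifih1 differed by 1.42. The GTPase Gbp7 differed by 1.56, but by -0.14 when its probe sets were averaged.

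Since TSA inhibits histone deacetylases, their genes and those of chromatin were read separately. Of 23 deacetylase, acetyltransferase and partner genes, 0 were called, 2 lay apart upward and 1 downward, against 2.92% and 3.59% of all genes. Hdac2 lay at 9.11 and 9.002 on the untreated non-diabetic arrays and at 9.58 and 9.97 on the TSA-treated arrays. The 3 that lay apart were Rcor1, a corepressor, higher by 1.14 (-0.19 when its probe sets were averaged), the sirtuin Sirt1, higher by 1.02, and Hdac10, lower by 1.01. Of 21 histone variant and chromatin assembly genes, 6 lay apart upward and 2 downward. H2az1, the variant histone H2A.Z, lay at 11.53 and 11.57, and at 12.37 and 13.06. Ezh2, the methyltransferase of polycomb, was higher by 1.62, with TSA-treated arrays at 9.65 and 9.78, and Asf1b, a histone chaperone of S phase, at 8.01 and 8.03, and at 9.35 and 9.18.

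Stress and housekeeping lists differed in how many genes lay apart, against 2.92% upward and 3.59% downward of all genes. Of 34 mitochondrial respiratory chain genes, 0 lay apart and the median difference was 0.31. Of 34 cytoplasmic ribosomal protein genes, 1 lay apart downward, Fau, at 12.38 and 12.64 on the untreated non-diabetic arrays and at 11.96 and 10.81 on the TSA-treated arrays. Of 23 antioxidant genes, 2 lay apart upward, and the list had medians of 0.60 and -0.36 on the 2 arrays. Cat, catalase, lay at 9.85 and 9.58, and at 10.67 and 11.13. Of 31 autophagy and mitochondrial turnover genes, 1 lay apart upward, the protease Atg4a at 8.68 and 8.61, and at 10.28 and 10.10, and 3 (9.68%) lay apart downward. Of 25 apoptosis regulators, 3 (12.0%) lay apart downward. Of 23 immediate early genes, 3 (13.0%) did so, among them Junb at 5.97 and 6.05, and at 4.59 and 4.44. Of 18 heat shock genes, 1 lay apart, Hspa4l, higher by 1.66.

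Genes that the study also measured by qRT-PCR in spleen and that are not given above were read on the same arrays. Lclat1, an acyltransferase of cardiolipin, lay at 7.15 and 6.80 on the untreated non-diabetic arrays and at 7.10 and 6.70 on the TSA-treated arrays, so the groups overlapped. Mif, macrophage migration inhibitory factor, lay at 8.32 and 8.42, and at 8.14 and 6.48. Gpx1, glutathione peroxidase, lay at 13.24 and 13.05, and at 13.75 and 13.15, and Sod1, superoxide dismutase, at 11.14 and 11.29, and at 11.74 and 12.14 (a difference of 0.73, but of -0.15 when its probe sets were averaged). These did not pass the test (adjusted p between 0.203 and 0.927 from limma), and Txn1, thioredoxin, differed by 0.65. The probe sets of the peroxiredoxin gene Prdx1 also name another gene and Prdx6 was matched to no probe set, so no value is given for these.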

How the data were processed

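The authors hybridized labeled spleen RNA to Affymetrix mouse genome arrays and made the deposited log2 values by robust multi-array averaging (RMA) in S+Array Analyzer, which corrects background, normalizes between arrays and summarizes probes; scanner intensities were not used here. RMA brings arrays to a common distribution, so values are relative within the series. Of 45101 probe sets, 64 controls were left out and 45037 tested; by the platform annotation 34945 named 1 gene, 931 several and 9157 none, and 4 were named as in the study. Groups came from the sample titles. limma 3.58.1 in R 4.3.3 was fitted to all 6 arrays, with 3 residual and 2.939 prior degrees of freedom, and p-values were adjusted (Benjamini-Hochberg) over all probe sets. The 2 arrays a group limit the precision. The model was tested on simulated data drawn with the same spread in every group. The real duplicates differed in spread between groups, so that test does not cover this feature. Gene lists, 50 with 1105 genes of which 960 were measured, and the comparison itself were chosen with earlier results of these data known. Genes were named by a rule: called genes, the 10 genes farthest apart in each direction, up to 4 members a list, and genes the study tested by qRT-PCR. The markers of spleen, liver and muscle, the markers Gcg, Sst and Lep, and a few list members (Alas2, Aqp1, Aurka, Ube2c, Cd24a, Cd79b, Cd3e, Cd8a, Ctrb1, Fabp4, Ins2, Mki67, Mcm2 to Mcm7, Pdia2, Pla2g1b, Reg2, Ptf1a, Rbpjl, Bhlha15) were named outside it, after their values were seen. Promoter sequences are from RefSeq (GRCm38.p6). Alternatives covered the replicate block, arrays, groups, variance moderation, tests, filters, normalization, threshold and probe sets.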

Additional observations from a re-analysis of the deposited data

How the results depend on the processing

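With 1 pool a group and 2 arrays a pool, no alternative measures the spread between mice. Against 26 rises and 5 falls (31 in all), the replicate block gave 27 and 3, so 29 of the 31 calls remained; the numbers were not shown to pair the arrays, since duplicate differences of the untreated non-diabetic and TSA-treated pools correlated at -0.04 across probe sets. Leaving out 1 array at a time gave 0 to 584 rises, 0 to 1461 falls and 0 to 2045 calls. No call remained without untreated non-diabetic replicate 1 or 2, all 31 remained without TSA-treated replicate 1 (2045 calls) or either diabetic array (714 calls each), and 25 remained without TSA-treated replicate 2. With only the 4 arrays compared, 258 rose and 456 fell (714). Quantile normalization gave 55 rises (60 calls), the filter at the median probe set 3 falls, and averaging a gene's probe sets 113 rises and 33 falls (146). The local pooled error test gave 127 and 777 (904), and 315 falls and 352 calls at an adjusted p under 0.001, where limma gave 0 rises, 0 falls and 0 calls. The methods' t-test gave 2791 and 2450 (5241) unadjusted, and 0 rises and 2 falls (2 calls) after Benjamini-Hochberg adjustment. Alternatives chosen after seeing the data were leaving out TSA-treated and diabetic replicate 2 together, with 2212 rises and 1607 falls (3819), and leaving out exocrine genes, with 5 rises and 10 calls. The cause was not tested, except that fewer arrays or genes entered some of these. Probe sets that lay apart numbered 823 to 1536 upward and 1669 to 3968 downward without 1 array (without TSA-treated replicate 1, 1379 and 3968; without replicate 2, 1536 and 1669), and 446 and 1090 with every pair of arrays apart by at least 1.

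Without 1 array, the list medians ran from 2.80 to 3.09 for digestive enzymes, 0.25 to 0.58 for other acinar genes, 0.27 to 0.41 for the respiratory chain, -0.66 to -0.39 for T cell genes, -0.41 to -0.37 for MHC class II and -0.63 to -0.37 for fibroblast genes. Medians that TSA-treated replicate 1 or 2 moved by over 1.5 times were those of red cell membrane genes (0.14 without replicate 1, 1.06 without replicate 2), heme synthesis (0.16 and 0.94), MHC class I (-1.37 and -0.18), B cell genes (-0.59 without replicate 2), T cell genes (-0.39 without replicate 2, and without both replicates 2), endothelial genes (-0.39 without replicate 2) and other acinar genes (0.58 without replicate 1). Over the brighter probe sets the other acinar genes had a median of 1.46. With the mean of all probe sets the medians were 0.57 for replication, -0.63 for MHC class II and -0.38 for megakaryocyte genes. In that setting MHC class I had -0.23, against -0.76 in the main setting, and heme synthesis 0.34, against 0.58. MHC class II had -0.39 after quantile normalization and -0.36 after centring. Among the lists whose median over both arrays is printed, no median changed its sign; the erythroid regulators, the antioxidant, autophagy and red pulp macrophage lists, among others near 0, had medians of opposite sign on the 2 arrays. Of the named genes, 10 changed direction in some setting, all of them not called. Without 1 array the difference ran from -2.51 to 0.29 for Alas2, -0.25 to 0.10 for Alb, -1.61 to 1.24 for Aqp1, -0.27 to 0.13 for Lclat1 and -1.85 to 1.16 for Ube2c. In each the sign turned without TSA-treated replicate 2 (0.039 for Alb, the same values with diabetic replicate 2 left out too), and for Alb (0.10) and Lclat1 (0.11) also without untreated non-diabetic replicate 1. Aurka ran from -0.93 (without TSA-treated replicate 1) to 1.45 (without replicate 2). Lclat1 was at 0.030 after quantile normalization. The mean of all probe sets gave 0.0082 for Fabp4, -0.14 for Gbp7, -0.19 for Rcor1 and -0.15 for Sod1. The causes were not tested.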
